A study of Hordeum vulgare with 6 samples.

Results

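Purple acid phosphatases are metal-containing enzymes that release inorganic phosphate (Pi) from phosphate esters. Their colour and their activity come from a pair of metal ions held by conserved residues in the active site. Plants have many such genes, and several of their products are secreted or sent to the vacuole, where they free Pi from organic compounds when Pi is short. Forms named probable inactive belong to the same family by sequence but are predicted to lack activity.

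The genes described here are the 3 on barley chromosome 5H that were chosen by identifier, out of 39841 genes listed in the table and 6165 listed on 5H. HORVU5Hr1G044460 is named purple acid phosphatase 5 in the study and HORVU5Hr1G055570 a purple acid phosphatase. HORVU5Hr1G081950 is named a probable inactive form. These names rest on sequence annotation, and enzyme activity was not measured in these data.

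The samples were shoots of the barley (Hordeum vulgare) line Rolap, harvested at an age of 23 days. Low-Pi plants, with 3 libraries, grew in a soil and sand mixture whose soil held 8 mg of phosphorus per kg. Control plants, also with 3 libraries, grew in the same soil with another 60 mg of phosphorus per kg, given as potassium phosphate. Plants of both groups were kept at 3 seedlings to a pot, at 22 °C and 16 h of light, and the 3 plants of a pot made up 1 replicate.

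For each gene the table holds a single measure of expression, called the level below. The level is the higher of the low-Pi mean and the control mean. It carries no value per library, so no standard deviation can be given, and the sequencing depth is unknown. The level also does not say which group it comes from, so a comparison between genes may set a low-Pi mean against a control mean. Every order of levels given below is an order of higher group means, and the order within low-Pi plants or within control plants is not known from it. The change of each gene in low-Pi is not given here, because the table holds it only as the authors' own comparison. Of all listed genes, 27022 had a level above 0, with a median of 1.22. For 3 chlorophyll a/b binding protein genes, whose products capture light in green tissue, the levels were 206, 350 and 411. They exceeded those of 99.0 to 99.5% of the genes above 0. The study picked out these genes on these same libraries, and only the higher group mean is read. They therefore do not check the shoot label of both groups.

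By the higher group mean, both genes without the inactive label stood above the probable inactive form. If their means come from different groups, the order within 1 group may be the opposite. HORVU5Hr1G044460 (chromosome 5H, 343325526 to 343335164, minus strand, genome build IBSC_v2) had a level of 8.89. HORVU5Hr1G055570 (5H, 436178339 to 436181983, minus strand) had a level of 6.28. HORVU5Hr1G081950 (5H, 565970905 to 565982631, plus strand) had the lowest level of the 3, at 4.92. The levels of HORVU5Hr1G044460 and HORVU5Hr1G055570 were 1.81 times and 1.28 times that of HORVU5Hr1G081950. Without values per library it cannot be said whether these differences exceed the spread between replicates, and no neighbours in this order are called different.

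All 3 genes stood in the upper part of the range of shoot genes without being among the most abundant. A lower level was found in 82.1% of the genes above 0 for HORVU5Hr1G044460 (exact 95% interval 81.7 to 82.6%, which covers counting error over genes only). The share was 77.3% for HORVU5Hr1G055570 (76.8 to 77.8%) and 73.5% for HORVU5Hr1G081950 (73.0 to 74.1%). In number, 4828 genes had a higher level than HORVU5Hr1G044460, 6127 than HORVU5Hr1G055570 and 7147 than HORVU5Hr1G081950. The levels of the 3 genes summed to 20.1, which is 0.00341% of the summed level of the table.

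**Figure D1:**
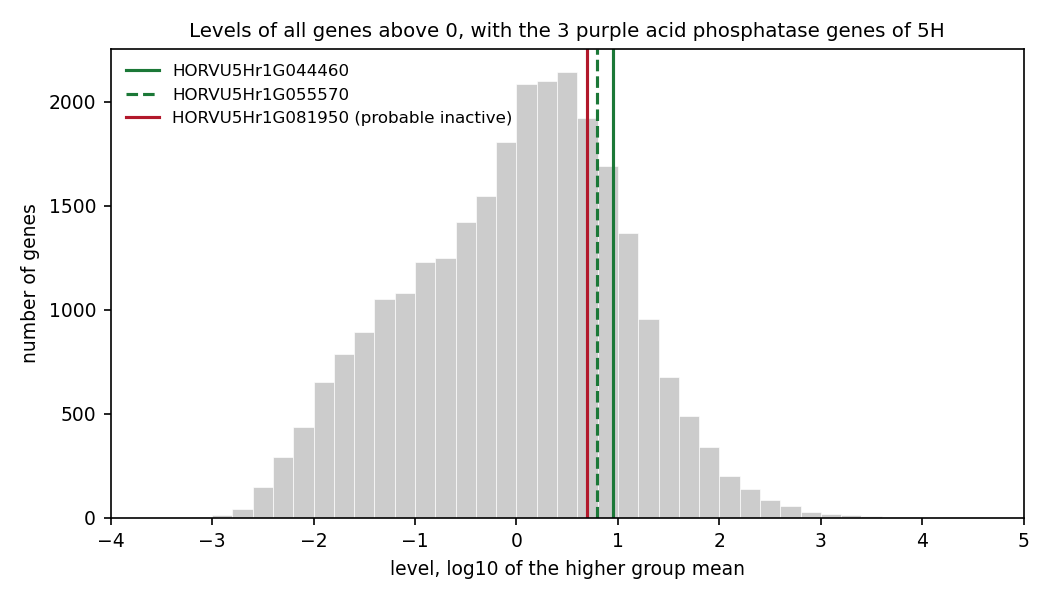
Histogram of the levels of all 27022 genes above 0 (x axis: log10 of the higher group mean; y axis: number of genes), with a vertical line at the level of each of the 3 purple acid phosphatase genes of 5H. All 3 lines stand to the right of the peak, in the order HORVU5Hr1G081950 (4.92), HORVU5Hr1G055570 (6.28) and HORVU5Hr1G044460 (8.89).

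The study names 3 further purple acid phosphatase genes, on chromosome 3H, and the genes of 5H lay within their range. HORVU3Hr1G076060 (3H, 567578333 to 567582966, plus strand) had the highest level of the 6, at 22.2. HORVU3Hr1G034460 (3H, 187361843 to 187364912, minus strand) had a level of 6.36, which was close to the 6.28 of HORVU5Hr1G055570. HORVU3Hr1G078360 (3H, 577862446 to 577867306, plus strand) had the lowest, at 2.69. In this order of higher group means HORVU5Hr1G044460 was the second, HORVU5Hr1G055570 the fourth and HORVU5Hr1G081950 the fifth. By this measure the probable inactive form was not the lowest of the 6 genes. If the means come from different groups, it may still be the lowest within 1 group. Of the summed level of the 6 genes, 17.3% belonged to HORVU5Hr1G044460, 12.2% to HORVU5Hr1G055570 and 9.58% to HORVU5Hr1G081950, against 43.2% for HORVU3Hr1G076060. The median level of the 6 genes was 6.32, beside 1.22 over all genes above 0. These 6 genes were picked out in the study on these same libraries, so their levels are not a sample of the family.

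Other hydrolase genes that the study names had levels from 1.49 to 31.6. The list holds 6 genes, and their median level was 7.43. They too were picked out in the study on these same libraries. GDPD1 (HORVU3Hr1G079900), a glycerophosphodiester phosphodiesterase that acts on products of phospholipid breakdown, stood at 31.6, above each of the purple acid phosphatase genes. A pair of genes for inorganic pyrophosphatase, the enzyme that splits pyrophosphate into Pi, had levels of 15.1 (HORVU3Hr1G068380) and 5.59 (HORVU3Hr1G068390). The annotated span of the second lies within that of the first, on the opposite strand, and the sources do not say whether strand was used in counting. HAD1 (HORVU1Hr1G054430), a hydrolase of the haloacid dehalogenase type, had a level of 8.15, next to that of HORVU5Hr1G044460. The S1/P1 nuclease gene (HORVU2Hr1G112830), whose product cuts single-stranded nucleic acids, had a level of 6.71. The only other gene of this list on 5H was DSP4 (HORVU5Hr1G051160, 399428084 to 399437441, plus strand), named a probable tyrosine-protein phosphatase, and its level of 1.49 was below that of the 3 purple acid phosphatase genes of 5H.

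**Figure D2:**
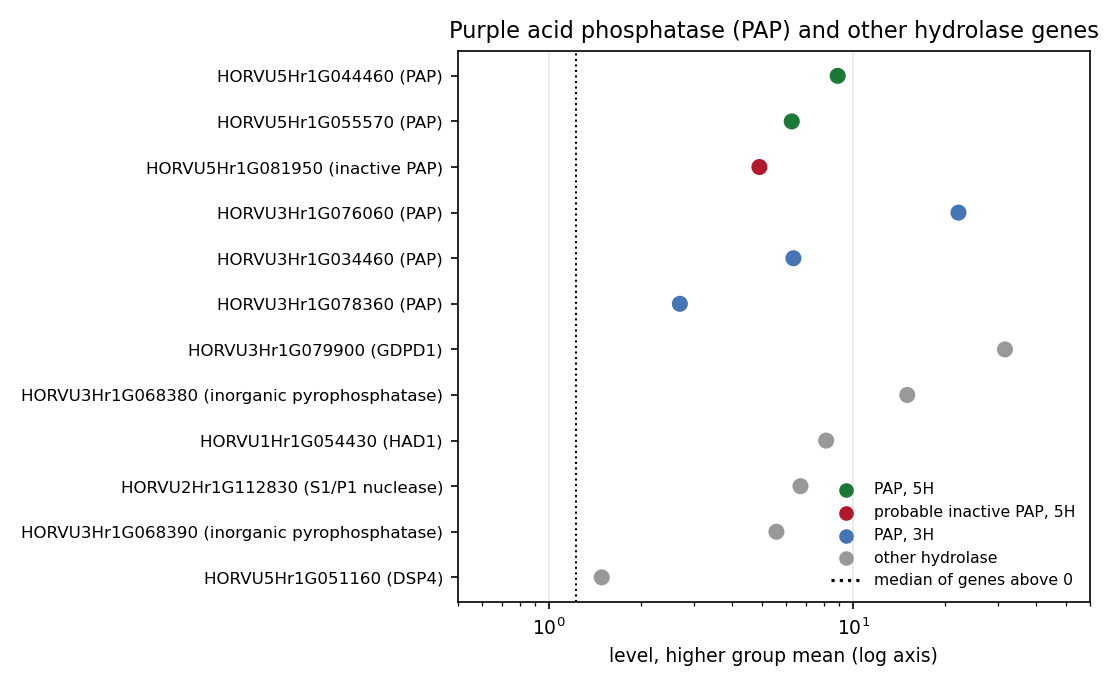
Level of each purple acid phosphatase (PAP) gene and of 6 other hydrolase genes named in the study (x axis: higher group mean, log axis). Each point is 1 gene, and no error is available. The dotted line marks the median of 1.22 over all genes above 0, which every gene shown exceeded. All genes shown were picked out in the study on these same libraries. The 3 genes of 5H, at the top, ranged from 4.92 to 8.89, and those of 3H from 2.69 to 22.2.

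The 3 genes do not form a cluster on 5H. Between the spans of HORVU5Hr1G044460 and HORVU5Hr1G055570 lie 92.8 Mb, and 575 listed genes start between the start positions of these 2 genes. Between the spans of HORVU5Hr1G055570 and HORVU5Hr1G081950 lie 130 Mb, with 1492 genes counted in the same way. Measured against the last annotated base listed on 5H, the genes start at 51.2%, 65.1% and 84.5% of its length, so the probable inactive form is the nearest to the end with the highest coordinates. The annotated span was 9.64 kb for HORVU5Hr1G044460, 3.65 kb (3645 bp) for HORVU5Hr1G055570 and 11.7 kb for HORVU5Hr1G081950, against a median of 2.25 kb over all listed genes. The number and length of exons are not in the table.

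The surroundings of the genes differed in gene density. Within 1 Mb on either side, 10 other genes were listed near HORVU5Hr1G044460 and 11 near HORVU5Hr1G055570, whereas 28 were listed near HORVU5Hr1G081950. The median over all genes of 5H was 30 neighbours. Fewer neighbours were found for only 12.8% and 15.5% of the 5H genes in the case of HORVU5Hr1G044460 and HORVU5Hr1G055570, but for 46.9% in the case of HORVU5Hr1G081950. Both genes without the inactive label thus stand in a sparse stretch and the probable inactive form in one of about usual density for the chromosome.

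HORVU5Hr1G044460 had the second highest level of its surroundings. Of its 10 neighbours 6 had a level above 0, with a median of 1.77, so its level was 5.02 times the local median. A single neighbour had a higher level, HORVU5Hr1G044410 at 8.93, which overlaps HORVU5Hr1G044400 (level 2.05) on the opposite strand. On the side of lower coordinates the nearest gene was HORVU5Hr1G044440, 58.0 kb away, with a level of 1.49. On the other side the nearest was HORVU5Hr1G044480, 979 kb away and listed at 0. HORVU5Hr1G044470 (343327800 to 343328426) lies within the span of HORVU5Hr1G044460 on the opposite strand and was also listed at 0, so if strand was not used in counting, reads of this pair cannot be told apart.

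HORVU5Hr1G055570 had a higher level than each of its 11 neighbours within 1 Mb. Of these, 6 were above 0, and their median of 0.604 made its level 10.4 times the local median. The highest neighbour was HORVU5Hr1G055610 with a level of 4.45. HORVU5Hr1G055560, only 9.61 kb away on the side of lower coordinates, had a level of 1.95. The nearest gene on the other side, HORVU5Hr1G055600, was 273 kb away and had a level of 0.0525. No listed gene overlaps HORVU5Hr1G055570. The standing of this gene rests on the window, since 5 neighbours exceeded it within 2 Mb, the highest of them HORVU5Hr1G055350 at 66.6. It also rests on the higher group mean of a gene that the study picked out on these same libraries. Whether HORVU5Hr1G055570 exceeds its neighbours within control plants cannot be told from the level alone, and the authors' comparison was not used.

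HORVU5Hr1G081950 stood above the local median. Within 1 Mb it had more neighbours with a higher level than the other 2 genes, but also more neighbours in total. Of its 28 neighbours 21 were above 0, with a median of 2.34, and its level was 2.10 times the local median. A higher level was found in 9 of the neighbours, the highest being HORVU5Hr1G081590 at 76.3. Within 2 Mb a higher level was found in 1 of 22 neighbours of HORVU5Hr1G044460, 5 of 23 of HORVU5Hr1G055570 and 17 of 63 of HORVU5Hr1G081950. Over the 10 nearest genes above 0 on each side the counts were 2, 7 and 8 of 20. In that setting HORVU5Hr1G055570 and the probable inactive form were nearly alike. The nearest gene on the side of lower coordinates, HORVU5Hr1G081930, was 17.2 kb away on the minus strand with a level of 32.6. On the other side HORVU5Hr1G082010, 91.2 kb away, had a level of 9.63. Both adjacent genes thus had higher levels than the probable inactive form. Both genes without the inactive label had higher levels than their adjacent genes. Over all 5H genes above 0, the ratio to the local median was lower for 75.0% than for HORVU5Hr1G044460, for 84.2% than for HORVU5Hr1G055570 and for 62.4% than for HORVU5Hr1G081950. With 3 genes no test of forms with the inactive label against those without it is possible. All 3 were picked out in the study on these same libraries and are read at their higher group mean. Their ratios to the local median are therefore those of selected genes.

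**Figure D3:**
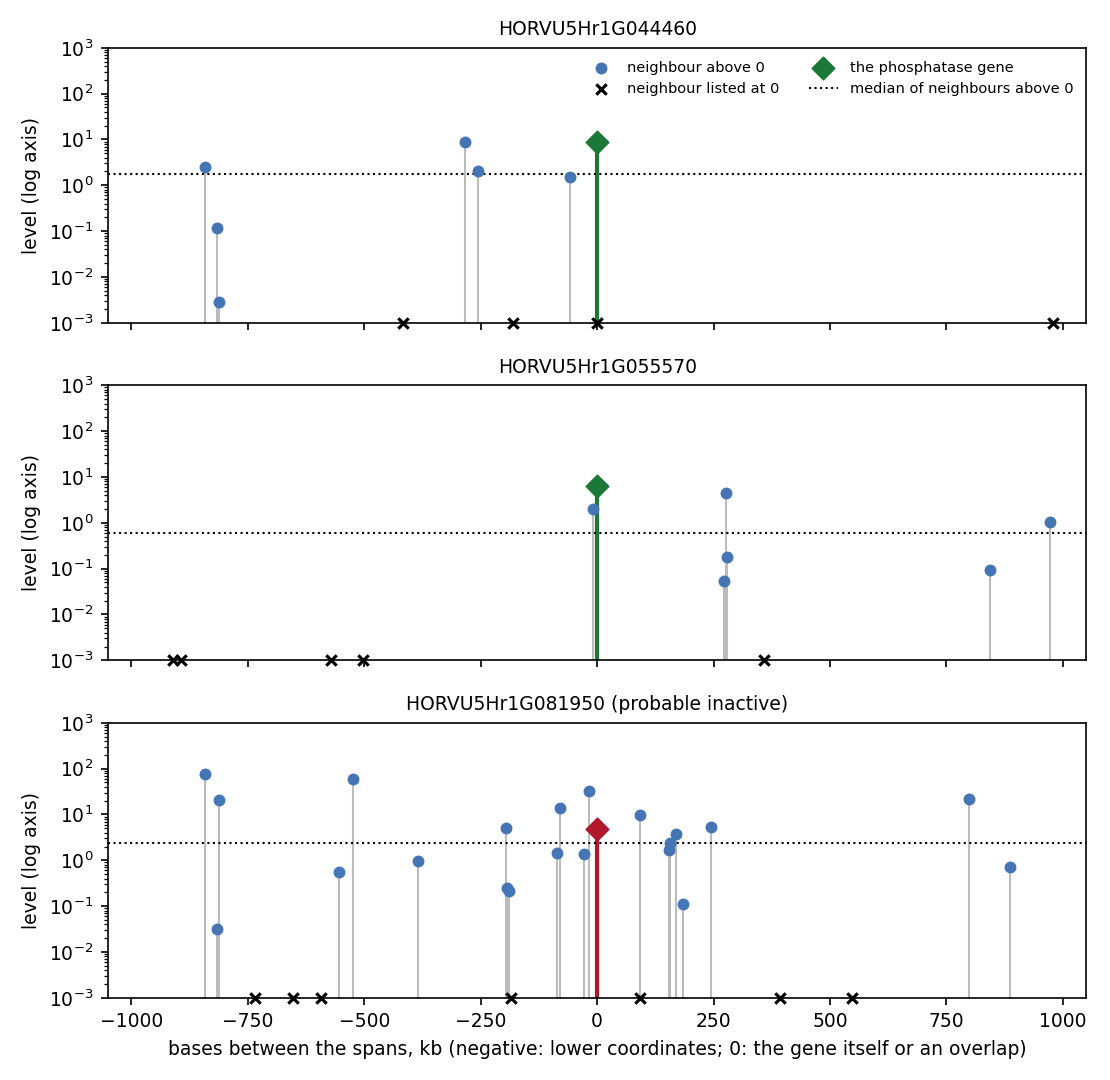
Level of each of the 3 genes (diamond) and of every listed gene within 1 Mb (x axis: bases between the spans in kb; y axis: higher group mean, log axis; crosses: genes listed at 0, placed at the lower edge; dotted line: median of the neighbours above 0). The diamonds of HORVU5Hr1G044460 and HORVU5Hr1G055570 stand at or near the top of sparse panels with 10 and 11 neighbours (HORVU5Hr1G044410, at 8.93, is just above the first), and 9 of the 28 neighbours of HORVU5Hr1G081950 stand above its diamond.

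Part of the upstream sequence of the 3 genes was compared. The study's supplement gives the 2 kb before each of a set of genes it selected, of which the first 399 letters could be read here for 96 genes, the 3 genes of 5H included. The sources do not give their genome coordinates and do not state in words which end faces the gene. The study places its motifs mostly in the proximal promoter, and most P1BS positions it lists fall in later letters. By that reading the letters used here are the end far from the gene, which was not tested. The parts shown run from letter 101 to letter 300, 5′ to 3′ as listed, with every C followed by G in capitals, because the number of these steps set the probable inactive form apart from the other members.
HORVU5Hr1G044460: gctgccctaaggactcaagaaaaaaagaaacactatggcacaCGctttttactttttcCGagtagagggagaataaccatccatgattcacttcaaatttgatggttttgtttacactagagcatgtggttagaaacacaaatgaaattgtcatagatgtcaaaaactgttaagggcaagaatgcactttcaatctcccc
HORVU5Hr1G055570: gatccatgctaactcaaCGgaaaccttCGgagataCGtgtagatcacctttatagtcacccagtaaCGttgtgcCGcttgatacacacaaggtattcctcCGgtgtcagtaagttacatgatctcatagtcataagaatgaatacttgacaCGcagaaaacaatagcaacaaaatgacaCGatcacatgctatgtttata
HORVU5Hr1G081950: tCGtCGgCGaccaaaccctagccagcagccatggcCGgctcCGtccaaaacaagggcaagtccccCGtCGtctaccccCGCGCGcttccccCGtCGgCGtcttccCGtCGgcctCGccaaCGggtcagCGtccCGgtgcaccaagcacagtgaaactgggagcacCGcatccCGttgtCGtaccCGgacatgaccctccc

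In these 200 letters there were 2 CG steps for HORVU5Hr1G044460 and 8 for HORVU5Hr1G055570, but 23 for HORVU5Hr1G081950. Over all 399 letters the counts were 6, 12 and 40. The G+C content of the 399 letters was 40.1% for HORVU5Hr1G044460, 42.1% for HORVU5Hr1G055570 and 63.4% for HORVU5Hr1G081950. Among the 84 genes whose letters held no ambiguous base, the median was 43.7% G+C and 16 CG steps. For HORVU5Hr1G081950, 1 of these genes had a higher G+C content and 1 had more CG steps. The probable inactive form thus stood at the upper end of the set. It was not alone there among genes of 5H, since HORVU5Hr1G023710 had 61.2% and 40 steps and HORVU5Hr1G062450 had 61.9% and 38 steps. HORVU5Hr1G055740, also on 5H, was low, with 35.8% and 4 steps. Both other purple acid phosphatase genes of 5H were below the median in both measures. This does not hold for all genes of the family without the inactive label, since HORVU3Hr1G076060 was above both medians, with 53.4% G+C and 21 CG steps. This contrast was chosen after its values were seen, and the 96 genes are not a sample of the genome.

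**Figure D4:**
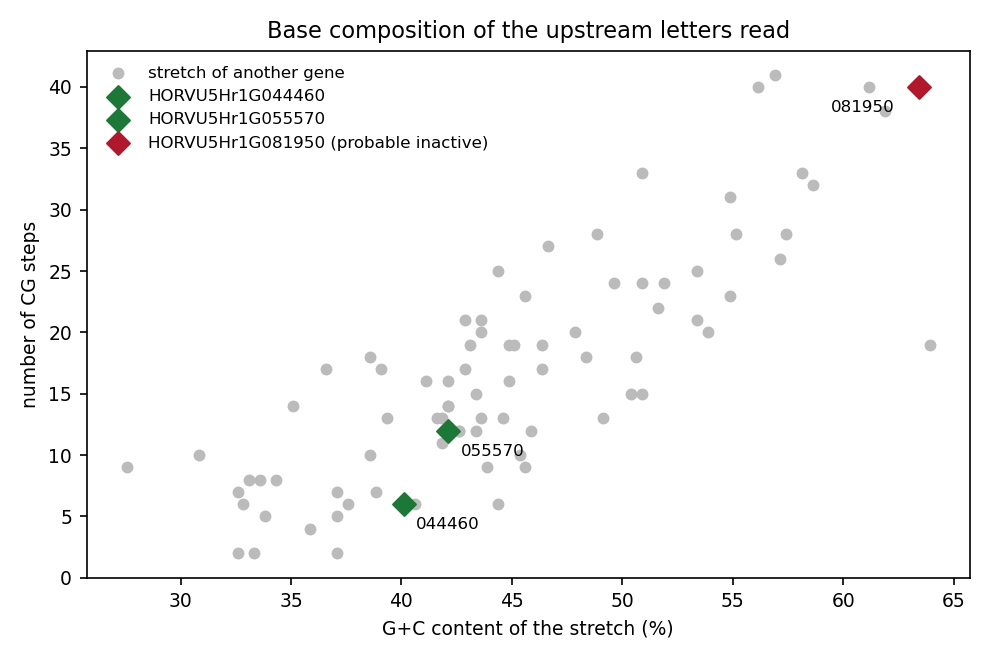
G+C content (x axis, %) against the number of CG steps (y axis) in the first 399 letters of the listed upstream sequence, for the 84 genes without an ambiguous base. The diamonds mark the 3 purple acid phosphatase genes of 5H: HORVU5Hr1G081950 stands at 63.4% and 40 steps, and the other two stand at 40.1% with 6 steps and 42.1% with 12 steps.

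A stretch of these letters was shared between purple acid phosphatase genes of different chromosomes. Letters 80 to 232 of HORVU5Hr1G055570 aligned without a gap with letters 2 to 154 of HORVU3Hr1G034460, and 131 of the 153 positions were identical (85.6%). In the lines below, the identical positions are in capitals.
HORVU5Hr1G055570: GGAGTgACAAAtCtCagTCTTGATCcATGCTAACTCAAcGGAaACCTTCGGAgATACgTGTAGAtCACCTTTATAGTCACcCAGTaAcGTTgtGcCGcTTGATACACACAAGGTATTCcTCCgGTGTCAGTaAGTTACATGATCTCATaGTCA
HORVU3Hr1G034460: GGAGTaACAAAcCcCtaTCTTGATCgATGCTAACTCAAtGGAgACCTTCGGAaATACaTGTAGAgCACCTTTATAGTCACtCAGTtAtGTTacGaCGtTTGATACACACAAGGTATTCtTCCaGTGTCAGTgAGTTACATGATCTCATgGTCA

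The same 2 genes aligned again over 61 letters, 339 to 399 of HORVU5Hr1G055570 and 141 to 201 of HORVU3Hr1G034460, with 90.2% identity. Letters 141 to 154 of HORVU3Hr1G034460 thus belong to both alignments. The stretch is not particular to purple acid phosphatase genes, because letters 79 to 397 of HORVU5Hr1G055570 also aligned with HORVU2Hr1G112230 on 2H, at 75.4% identity over 321 positions with gaps. No alignment was found between HORVU5Hr1G044460 or HORVU5Hr1G081950 and any other of the 96 genes at the same limit. The 3 genes of 5H therefore shared no such stretch with each other.

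Binding motifs linked with the Pi response were searched in the same letters on both strands. The P1BS motif (GNATATNC) is bound by PHR1-type transcription factors, which act in the plant response to Pi shortage, and the PHO element (ATGCCAT) is a shorter motif linked with the same response. Neither was found in the 399 letters of the 3 genes of 5H, with 0 matches for each motif, nor in those of the 3 genes of 3H, so no overlap between the motifs arose there. Each motif was present in 9 of the 96 genes (9.38%), those with ambiguous letters included. The study searched the whole 2 kb. It lists matches beyond these letters for HORVU5Hr1G044460 and HORVU5Hr1G055570, and none for HORVU5Hr1G081950. The later letters were not used here, so a count of 0 does not mean that the upstream region of a gene lacks the motif. The equal counts of 0 do not show that the 3 genes are alike in these motifs.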

How the data were processed

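Paired reads of poly(A) RNA libraries from 3 low-Pi and 3 control shoot samples were trimmed and mapped by the authors in CLC Genomics Workbench to the IBSC_v2 barley genome with the Ensembl Plants annotation. The deposited signal used here is the higher of both group means of normalised expression; the methods name TPM and define RPKM, but the column summed to 589470, less than TPM would give as a maximum over groups, so its unit is left unknown. Values are compared between genes on the assumption that they are per exon length. The table has no columns of per-sample values. Its other 5 columns hold the authors' comparison (log2 fold change, fold change, and raw, FDR and Bonferroni p-values) and were not used, so no low-Pi change is given.

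Members were matched by identifier. The members and lists were chosen with earlier results of these data known. Named genes were the members, purple acid phosphatase and other hydrolase genes named in the study, adjacent and overlapping genes, and the highest neighbour within 1 Mb; HORVU5Hr1G044400, HORVU5Hr1G055350 and HORVU2Hr1G112230 were added after their values were seen. HORVU5Hr1G023710, HORVU5Hr1G062450 and HORVU5Hr1G055740 were likewise added after their values were seen. Shares of genes have exact (Clopper-Pearson) 95% intervals (SciPy 1.17.1). Upstream letters were aligned with blastn (BLAST+ 2.17.0, E-value limit 0.001). Of 39733 nuclear identifiers, 0 matched the RefSeq name table, which is for the MorexV3 assembly. Scripts were tested on simulated data.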

Additional observations from a re-analysis of the deposited data

How the results depend on the processing

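No paired analysis was possible because the table holds no value per library, and libraries could not be left out for the same reason. Against genes with a level of at least 1, the share with a lower level became 66.4% for HORVU5Hr1G044460, 57.3% for HORVU5Hr1G055570 and 50.2% for HORVU5Hr1G081950. Against every listed gene it became 87.9%, 84.6% and 82.1% in the same order, and among 5H genes above 0 it stayed within the interval for each. The order of the 3 members by level is the same against each of these backgrounds by construction. The ratio to the local median for HORVU5Hr1G044460 became 9.02 within 2 Mb, 19.2 over the 10 nearest genes above 0 on each side and 149 with genes at 0 included. For HORVU5Hr1G055570 it became 5.89 within 500 kb, 3.17 within 2 Mb, 3.11 over the 10 nearest genes on each side and 120 with genes at 0 included; HORVU5Hr1G044460 had the higher ratio of these 2 genes within 2 Mb, over the nearest genes and with genes at 0 included within 1 Mb. For HORVU5Hr1G081950 it became 4.24 with genes at 0 included, and it was 2.43 within 500 kb, 2.17 within 2 Mb and 2.43 over the 10 nearest genes above 0 on each side. With genes at 0 included, the ratio also depended on the window, at 218, 6.11 and 44.5 within 2 Mb in the order of the members. Each ratio stayed above 1 under every setting. Neighbours numbered 6, 5 and 17 within 500 kb and 22, 23 and 63 within 2 Mb, in the order of the members. Multiplied by span, HORVU5Hr1G081950 ranked the third and HORVU3Hr1G034460 the fifth (rank 3 and rank 5) of the purple acid phosphatase genes, and the ranks of the other 4 did not change. Motif counts on the listed strand were 0 by construction, because those on both strands were 0.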
